A study of Mus musculus with 12 samples.

Results

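Integrins are receptors of the cell surface, each made of 1 alpha and 1 beta subunit, that bind extracellular matrix outside the cell and, through adaptor proteins, the actin cytoskeleton inside it. Itgb1 pairs with many alpha subunits, among them the collagen receptors Itga1, Itga2 and Itga11 and the receptors Itga5, Itga8 and Itgav that recognise the arginine-glycine-aspartate motif of fibronectin and similar proteins, while Itgb3, Itgb5 and Itgb8 pair with Itgav. In the vessel wall, smooth muscle cells, fibroblasts and endothelial cells use these receptors to hold on to and to sense their matrix, and the Itgav receptors also bind the latent form of TGF-beta.

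The 10 subunits described here, 6 alpha and 4 beta, were taken by symbol from the 55414 genes of a table of RSEM expected counts. The table covers the inferior vena cava (IVC) of 12 wild-type C57BL/6 mice, aged 10 weeks, collected on postoperative day 7. In 6 mice an aortocaval fistula (AVF) had been made by a needle puncture from the infrarenal aorta into the IVC, and 6 mice had a sham operation with every step except the puncture. Each operation had 3 female and 3 male mice, with 1 poly(A) library per mouse. All 10 subunits passed the filter on low values of the comparison, more than 1 CPM (counts scaled to the size of the library) in at least 2 samples, which left 15912 genes. Values below are normalized CPM unless a length is named, and a call means an adjusted p value under 0.05 in edgeR's quasi-likelihood test.

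The libraries held 15177881 to 22717423 counts, and 1 library, AVF sample #07, had 46.0% of them in ribosomal RNA genes against 2.39% to 12.6% in the other 11. The 8 smooth muscle markers summed to 2600 to 5464 CPM and the 8 endothelial markers to 1749 to 2975, so transcripts of both cell types were present in every library. Liver transcripts stood out in AVF samples #05 and #09 alone, where albumin (Alb) was at 1853 and 5594 CPM against at most 2.67 in the other 10. Fold changes of the members are given below with and without these 2 samples.

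Of the 10 integrin subunits, 3 rose in AVF mice: Itgb5, Itga5 and Itgb1. No subunit was called lower, and DESeq2 also called none lower. At an unadjusted p under 0.05 in edgeR's quasi-likelihood test, Itgb8 was lower and, beside the 3, Itga11 and Itgav were higher. That cut held 5023 of the 15912 tested genes in either direction. For comparison, 8.63% of all tested genes were called higher and 5.13% lower, 13.8% in either direction. None of the 3 reached a 2-fold change, the size that with an adjusted p under 0.05 makes a differentially expressed gene (DEG), and 4.77% of tested genes were DEG. The median log2 fold change of the 10 subunits was 0.29, and that of all tested genes was -0.014. In this bulk tissue, more cells of a type and more RNA per cell cannot be told apart.

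**Figure D1:**
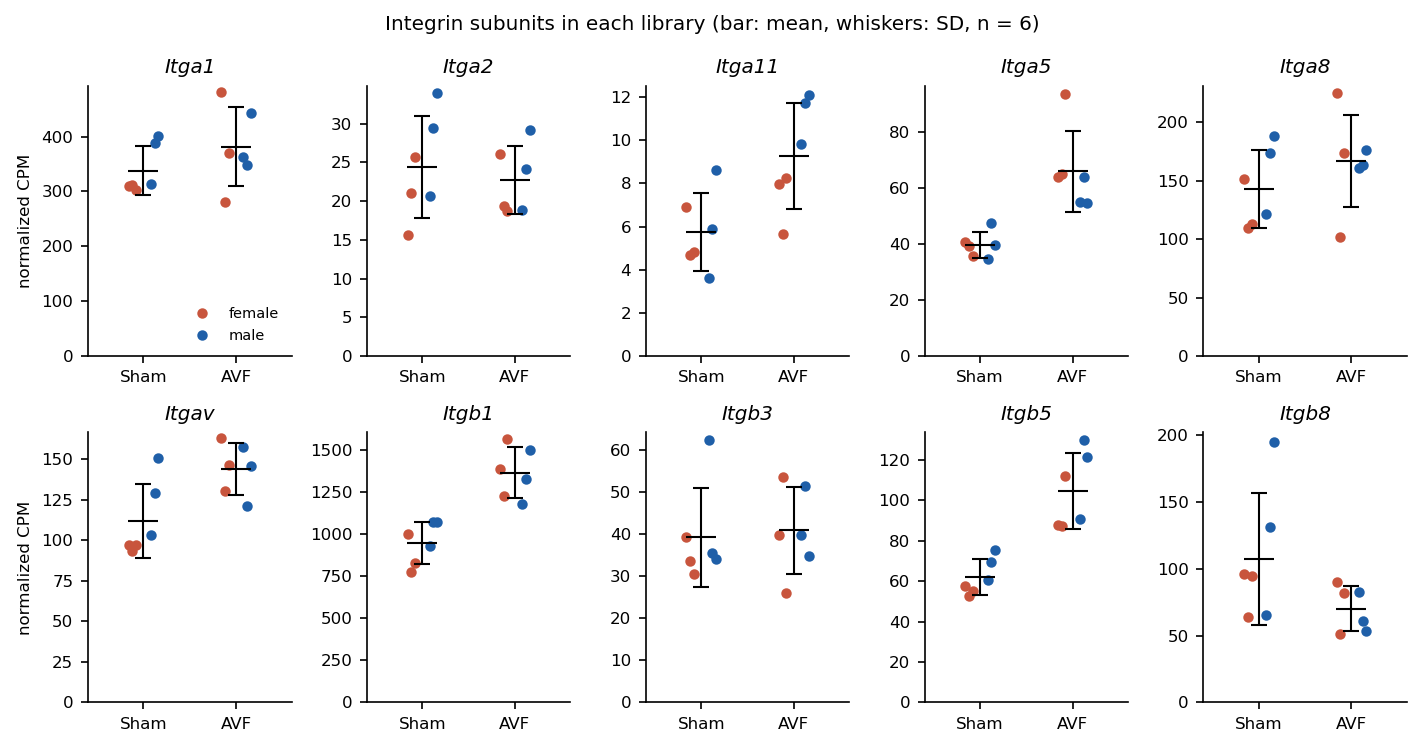
Normalized CPM (y axis, from 0) of the 10 integrin subunits in the 6 sham and 6 AVF libraries, females in red and males in blue; bars are means and whiskers SD. In the Itga5, Itgb1 and Itgb5 panels all 6 AVF libraries lie above all 6 sham libraries, and in the other 7 panels the groups overlap.

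Itgb5, the beta subunit of the vitronectin receptor alpha-v beta-5, had the lowest adjusted p value of the members. Its lowest, median and highest values were 87.3, 101 and 130 CPM in AVF mice and 52.5, 59.1 and 75.5 in sham mice. No AVF library overlapped the sham group, a separation with AVF on top that 4.55% of tested genes had. The means were 105 ± 18.8 (SD, n = 6) and 61.9 ± 8.92 (SD, n = 6), and the log2 fold change was 0.76 (standard error, SE, 0.13, 95% interval 0.49 to 1.04, edgeR quasi-likelihood adjusted p = 0.00294). Without samples #05 and #09 it was 0.74.

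Itga5 is the alpha subunit of the main fibronectin receptor, alpha-5 beta-1. Its values ran from 54.5 through a median of 63.9 to 93.5 CPM in AVF mice and from 34.5 through 39.5 to 47.7 in sham mice. The groups did not overlap, and AVF sample #11 stood well above the other 5 AVF libraries, which lay at 54.5 to 64.9. The log2 fold change was 0.73 (SE 0.13, 95% interval 0.45 to 1.02, edgeR quasi-likelihood adjusted p = 0.00407). It was 0.60 without sample #11 and 0.75 without samples #05 and #09, with a call in both cases.

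Itgb1, the common partner of the collagen and fibronectin receptors, ran from 1176 through 1357 to 1563 CPM in AVF mice. In the sham group it ran from 774 through 964 to 1072, so that the groups again did not overlap. The log2 fold change was 0.53 (SE 0.11, 95% interval 0.29 to 0.77, edgeR quasi-likelihood adjusted p = 0.0111), and 0.57 without samples #05 and #09. The calls of Itgb5, Itga5 and Itgb1 were kept in each of the 12 fits that left out 1 library.

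On GRCm39, Itga5 (ENSMUSG00000000555) lies on the minus strand at chr15:103252713-103275270, Itgb1 (ENSMUSG00000025809) on the plus strand at chr8:129411876-129460618, and Itgb5 (ENSMUSG00000022817) on the plus strand at chr16:33649988-33771137. To show the start regions of the 3 subunits that rose, the 250 bases before each RefSeq start site were read for 9 of the 10 members, from RefSeq promoters of GRCm38.p6 whose sequence was matched without a difference to GRCm39, whose coordinates are given. Of 5 motifs searched on both strands, GGGCGG, the GC box, was found in Itga5, Itgb1 and Itgb5, and not in these windows of the other 6. Over all 27025 promoters of the same length, 32.9% held it. The RefSeq start sites of Itga8, Itgav, Itgb1 and Itgb8 lay 459, 338, 259 and 573 bases past the GENCODE start of the gene. Their windows of 250 bases therefore held no bases before that start. The start site of Itga1 lay 177 bases past it, so the windows do not cover the same part of each gene. The stretches below are written 5' to 3' on the strand of the gene, with GGGCGG or its reverse complement in capitals. They are the bases before the GENCODE start of the gene for Itga5 and Itgb5, and 30 bases around each match that lies past that start, as the match of Itgb1 does.
Itga5, chr15:103275271-103275468: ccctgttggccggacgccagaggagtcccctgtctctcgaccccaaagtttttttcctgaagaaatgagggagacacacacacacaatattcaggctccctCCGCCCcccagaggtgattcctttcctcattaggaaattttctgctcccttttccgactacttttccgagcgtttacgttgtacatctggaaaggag
Itga5, chr15:103275219-103275248: gagaggagggcgaagaacccaagcCCGCCC
Itgb1, chr8:129411972-129412001: ggctttccagccGGGCGGccggcgccctcg
Itgb5, chr16:33649785-33649987: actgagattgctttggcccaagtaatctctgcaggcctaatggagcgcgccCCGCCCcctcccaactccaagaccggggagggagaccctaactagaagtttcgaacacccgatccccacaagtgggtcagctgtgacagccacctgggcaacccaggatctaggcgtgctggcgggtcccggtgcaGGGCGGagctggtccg
Itgb5, chr16:33649989-33650018: cccgagctcgccCCGCCCcgtcccgcctag

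The matches began 149 and 6 bases before the RefSeq start in Itga5, 151 in Itgb1, and 199, 63 and 34 in Itgb5. Of the other motifs, GGAATG, the element bound by TEAD factors, was found in 1 member, Itgb1, against 12.6% of all promoters. The AP-1 element TGANTCA (6.87% of all promoters), the TATA box TATAAA (13%) and the CArG box of serum response factor (1.4%) were found in none of the 9. The GC content of the 9 windows was 55.6% to 68.4%, with a median of 52% over all promoters, and the windows of Itga11 and Itgb1 were the richest. These matches describe letters in a window, and binding was not measured.

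Among the other alpha subunits that recognise the arginine-glycine-aspartate motif, Itgav, which pairs with Itgb1, Itgb3, Itgb5 and Itgb8, did not pass the test. Its values were 121, 146 and 163 CPM (lowest, median and highest) in AVF mice and 93.5, 100.2 and 150 in sham mice. All 6 AVF libraries lay above the sham median, but only 2 lay above the highest sham library, sample #18. The log2 fold change was 0.36 (SE 0.13, edgeR quasi-likelihood adjusted p = 0.0734). Without samples #05 and #09 it was 0.45 (adjusted p = 0.0558). Without sham sample #18 it was 0.46 with an adjusted p of 0.0152, and DESeq2 gave an adjusted p of 0.0303, so that the call depended on 1 library and on the test.

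Itga8, the receptor for nephronectin and an alpha subunit of contractile cells, was at 102 to 225 CPM in AVF mice and 109 to 189 in sham mice. Its log2 fold change was 0.22 (95% interval -0.18 to 0.62, edgeR quasi-likelihood adjusted p = 0.439). Without samples #05 and #09 it was 0.36 (adjusted p = 0.178). Both the lowest library, #09, and the highest, #07, were female AVF samples, and the other 4 AVF libraries lay within the sham range.

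Of the collagen receptors, Itga1 and Itga2 were not called. Itga1, which binds basement membrane collagen best, had a log2 fold change of 0.17 (95% interval -0.11 to 0.46, adjusted p = 0.39), and 0.29 without samples #05 and #09 (adjusted p = 0.138). Itga2, known from platelets and epithelium as a receptor of fibrillar collagen, had one of -0.10 (95% interval -0.50 to 0.29, edgeR quasi-likelihood adjusted p = 0.739), and -0.07 without these 2 samples. All 6 AVF values of Itga2, 18.7 to 29.2 CPM, lay inside the sham range of 15.7 to 34.0. Itga1 and Itga2 are neighbours on the minus strand of chromosome 13. Pelo lies within the span of Itga1 on the same strand, and the estimated count of Itga1 was not whole in 10 of the 12 libraries, so that some of its reads were divided by the estimate. Itgb5 had such counts in 9 libraries and the other 8 members in none.

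Itga11, a receptor of fibrillar collagen typical of fibroblasts, was the least abundant member. Its lowest, median and highest values were 5.65, 9.05 and 12.1 CPM in AVF mice and 3.60, 5.34 and 8.64 in sham mice. AVF libraries lay above every sham library in 3 of 6 cases, the highest sham library was #18, and the 3 male AVF samples were the highest of all 12. The log2 fold change was 0.69, close to those of Itga5 and Itgb5, but with a standard error of 0.23 (edgeR quasi-likelihood adjusted p = 0.0653). The adjusted p was 0.0307 without sham sample #18, 0.0322 without AVF sample #09 and 0.0238 in DESeq2, with log2 fold changes of 0.84, 0.80 and 0.70. Without both samples #05 and #09 it was 0.0734, with a log2 fold change of 0.74.

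Itgb3, the beta subunit of the platelet fibrinogen receptor and, with Itgav, a receptor of activated vascular cells, did not separate the groups. Its values ran from 25.9 through 39.9 to 53.6 CPM in AVF mice and from 30.6 through 34.8 to 62.3 in sham mice. The log2 fold change was 0.06 (95% interval -0.38 to 0.50, edgeR quasi-likelihood adjusted p = 0.865), and it was -0.16 without samples #05 and #09 and 0.24 without sham sample #16. Sample #16 had the highest Itgb3, the highest Itga2b, its platelet partner, at 26.1 CPM against 2.30 to 10.8 in the other 11 libraries, and the highest sum of 6 platelet markers, at 178 against 17.0 to 67.5. Samples #05 and #09, which held liver transcripts, had the next highest Itgb3 (51.5 and 53.6), with platelet sums of 62.5 and 17.0. No platelet marker was called in either direction, 0 of 6, and the part of platelet RNA in the values of Itgb3 was not tested.

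Itgb8, the beta subunit of the receptor alpha-v beta-8 that binds latent TGF-beta and is known from glia and fibroblasts, had lower values in AVF mice without passing the test. Its lowest, median and highest values were 51.3, 71.2 and 90.2 CPM in AVF mice and 63.8, 95 and 195 in sham mice. All 6 AVF libraries lay below the sham median and 3 lay below every sham library. The log2 fold change was -0.62 (SE 0.26, 95% interval -1.19 to -0.05, edgeR quasi-likelihood adjusted p = 0.130). Without sham sample #18, which had the value of 195, it was -0.37, and without samples #05 and #09 it was -0.48 (adjusted p = 0.317). Sham samples #17 and #18 had the highest Itgb8 and also the highest sums of 6 Schwann cell markers, 760.0 and 746 CPM against 183 to 505 in the other 10. In that list 0 genes were called higher and 1, Cdh19, lower (0 without samples #05 and #09), and its sums overlapped, at 183 to 433 in AVF mice and 346 to 760.0 in sham mice. Within the sham group, #17 and #18 also had the highest sums of smooth muscle (4880 and 5276 CPM), fibroblast (6434 and 6084), pericyte and lymphocyte markers. The part of Schwann cell RNA, or of RNA of these other cells, in the difference was not tested.

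**Figure D2:**
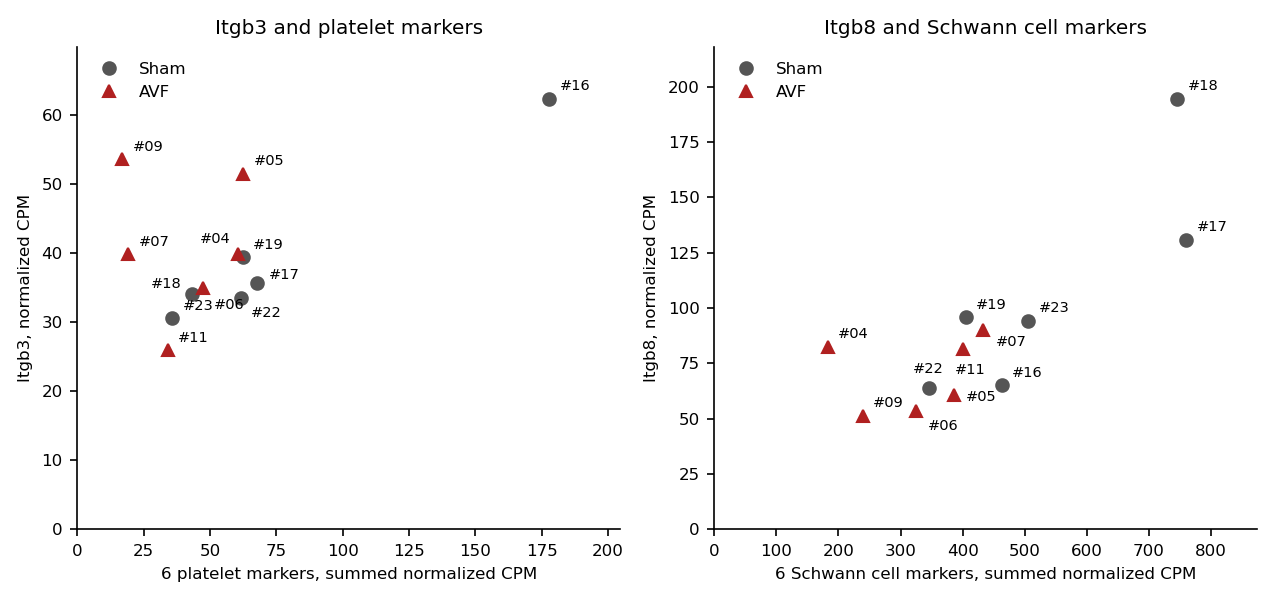
Normalized CPM of Itgb3 against the sum of 6 platelet markers (left) and of Itgb8 against the sum of 6 Schwann cell markers (right) in the 12 libraries, sham as grey circles and AVF as red triangles, labelled by sample number. Sham #16 holds the highest Itgb3 and platelet sum, and sham #17 and #18 hold the highest Itgb8 and Schwann cell sums.

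The levels of the members were compared with each other as CPM per kb of exon sequence. Itgb1 was far above the rest, at 228 ± 25.4 (SD, n = 6) CPM per kb in AVF mice and 158 ± 20.9 (SD, n = 6) in sham mice. In the sham group it was followed by Itga1 (15.8), Itga8 (13.3), Itgb8 (9.54), Itgav (9.07), Itgb5 (8.76), Itga5 (7.45), Itgb3 (5.93), Itga2 (3.42) and Itga11 (0.932), all as mean CPM per kb. Neighbours in that order overlapped in their sham ranges, except Itgb1 with Itga1 and Itga2 with Itga11. In the AVF group the order was Itgb1, Itga1 (17.9), Itga8 (15.5), Itgb5 (14.9), Itga5 (12.4), Itgav (11.7), Itgb8 (6.21), Itgb3 (6.19), Itga2 (3.19) and Itga11 (1.5). Itgb5 and Itga5 stood ahead of Itgav and Itgb8 in AVF mice and behind them in sham mice, an order that depended on the length used. Per kb of the longest transcript Itga5 stayed behind Itgav in AVF mice, at 14.9 against 19.5, and Itgb5 stood ahead of Itgb8 in sham mice too, at 13.1 against 12.5.

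As a share of the summed CPM per kb of Itgb3, Itgb5 and Itgb8, the beta subunits that pair with Itgav and not with the collagen receptors, Itgb5 had 54.3% ± 6.64 (SD, n = 6) in AVF mice and 36.6% ± 2.79 (SD, n = 6) in sham mice. The AVF libraries ranged from 47.0% to 63.2% and the sham libraries from 32.3% to 40.9%, without overlap. The share of Itgb8 was 23.0% ± 6.01 in AVF mice and 38.1% ± 9.67 in sham mice, with overlap, and 3 of 6 AVF libraries lay below every sham library. The share of Itgb3 was 22.8% ± 5.94 and 25.3% ± 8.33. A share can move because any of the 3 genes moves, and no test was made on it.

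Of the 6 alpha subunits, the 3 collagen receptors together made up 36.3% ± 3.15 (SD, n = 6) of the summed CPM per kb in AVF mice and 40.5% ± 1.80 (SD, n = 6) in sham mice, and 5 of 6 AVF libraries lay below every sham library. Itga5 made up 20.2% ± 4.54 and 15.1% ± 1.72, and 4 of 6 AVF libraries lay above every sham library. Itgb1 held 89.3% of the summed CPM per kb of the 4 beta subunits in AVF mice and 86.8% in sham mice.

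**Figure D3:**
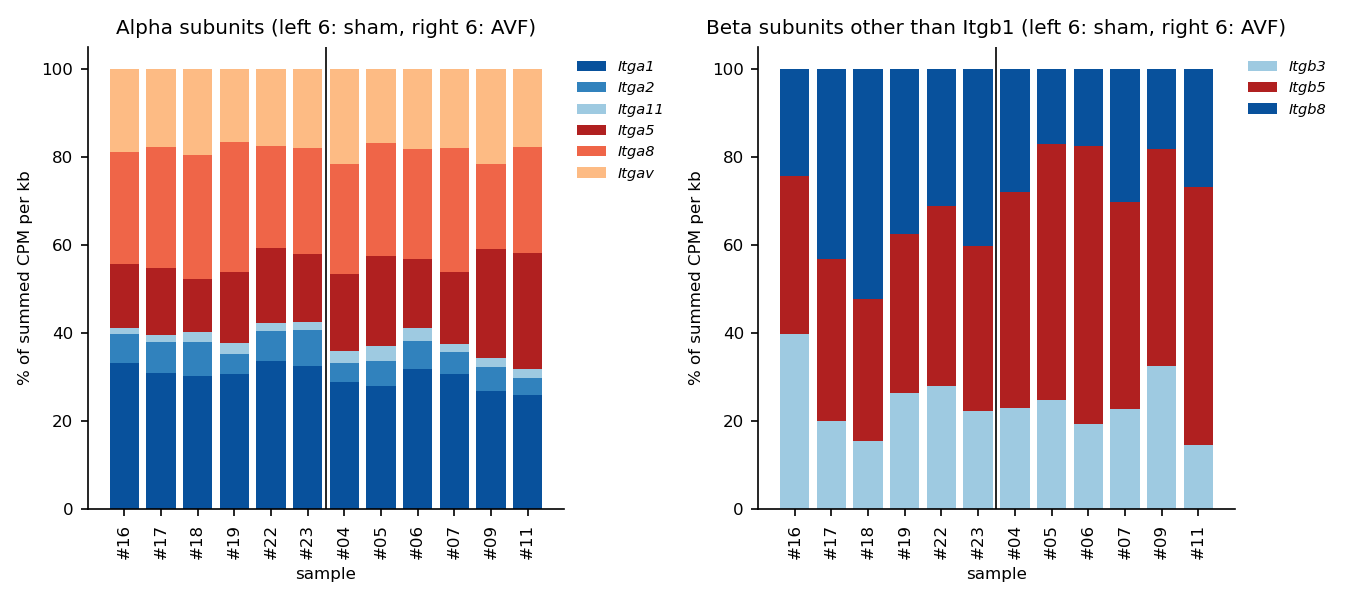
Share (percent of summed CPM per kb of exon sequence) of each of the 6 alpha subunits (left) and of Itgb3, Itgb5 and Itgb8 (right) in each library, the 6 sham samples left of the line and the 6 AVF samples right of it. The red Itgb5 band takes 47.0% to 63.2% in the AVF samples and 32.3% to 40.9% in the sham samples.

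The sexes were compared in a model of 4 groups of 3 libraries each, on 22163 genes with more than 12 counts over the 12 samples. In females, 2 of 10 members were called higher in AVF mice, Itga5 with a log2 fold change of 0.91 (SE 0.17, adjusted p = 0.0223) and Itgb5 with one of 0.76 (SE 0.15, adjusted p = 0.0289), while 1.6% of tested genes were called higher. In males no member was called in either direction, and 0.424% of tested genes were called higher. The male log2 fold changes were 0.51 in Itga5 (adjusted p = 0.228), 0.74 in Itgb5 (adjusted p = 0.0654) and 0.39 in Itgb1 (adjusted p = 0.322), all from edgeR's quasi-likelihood test. DESeq2 called 4 members in females and 1 in males. The female count fell to 0 without AVF sample #11 or without any of the sham samples #19, #22 and #23, and was 4 without sham sample #16. The male count was 1 without AVF sample #11.

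The difference between the female and the male effect was tested as an interaction, which called 0% of tested genes and no member in edgeR's quasi-likelihood test. At an unadjusted p under 0.05 it held 1069 of the 22163 tested genes and 0 of the 10 members. DESeq2 called 3 genes and no member. For Itgb5 the female minus male difference of log2 fold changes was 0.03, with a 95% interval of -0.45 to 0.50. For Itga5 it was 0.40 (-0.13 to 0.92), for Itgb1 0.26 (-0.23 to 0.76) and for Itgav 0.42 (-0.03 to 0.87). For Itga5, Itgb1 and Itgav these intervals include differences as large as the effects over both sexes, while for Itgb5 the bounds were smaller than its effect of 0.76.

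Between female and male AVF mice 0.0226% of tested genes were called, and between female and male sham mice 0.0451%, with no member among either. Itga11 in AVF mice came nearest by size. It was at 5.65 to 8.26 CPM in 3 females and 9.84 to 12.1 in 3 males, which did not overlap, with a female minus male log2 fold change of -0.64 (95% interval -1.29 to 0.00263, adjusted p = 0.979). In the sham group Itgav was at 93.5 to 97.3 CPM in females and 103 to 150 in males, also without overlap, a log2 fold change of -0.39 (edgeR quasi-likelihood adjusted p = 0.609). The share of all tested genes in which 3 females and 3 males did not overlap was not counted. In the sham group the mean of every member was lower in females than in males. The share of all tested genes with this direction was not counted. Male sample #16 still had the lowest value of the sham group in Itga5 (34.5 CPM) and Itga11 (3.60).

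Of the 16 other integrin subunits, 14 passed the filter, 5 were called higher, none lower, and 2 were DEG. The median log2 fold change of the 14 was 0.38. Itga4, which with Itgb1 binds fibronectin and VCAM-1, rose by 1.19 on the log2 scale (adjusted p = 0.00442) and ran from 61.6 to 151 CPM in AVF mice and from 34.1 to 60.9 in sham mice. Itga9, which with Itgb1 binds tenascin, had one of 0.55, and Itga10, a collagen receptor of cartilage, one of 0.72. Itgam and Itgax, subunits of leukocytes, had log2 fold changes of 0.78 and 1.05, and their partner Itgb2 had one of 0.54 (edgeR quasi-likelihood adjusted p = 0.0787). The laminin receptor subunits Itga3 (-0.23), Itga6 (-0.18), Itga7 (0.22) and Itgb4 (-0.06) were not called. The count of 5 fell to 3 without samples #05 and #09, with Itga4, Itga9 and Itgam, and to 2 without sample #05 or #22 alone. It was 3 without any of samples #06, #11, #16 and #19. DESeq2 and the model with sex as a covariate called 1 lower.

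**Figure D4:**
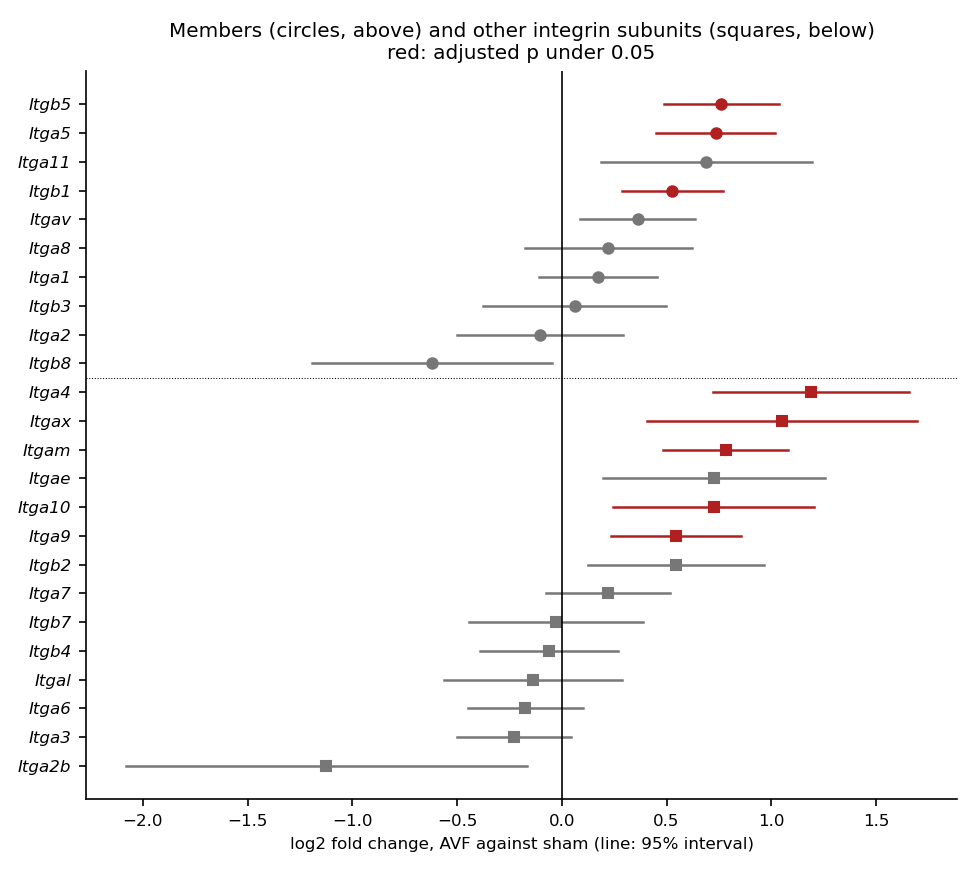
Log2 fold change of AVF against sham (x axis) with its 95% interval for the 10 members (circles, above the dotted line) and the 14 tested other integrin subunits (squares), red where the adjusted p was under 0.05. Among members Itgb5, Itga5 and Itgb1 are red, and Itga11 has a similar fold change with a wider interval.

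Some lists of markers of other cells moved with the operation, and others did not. Of 8 macrophage markers, 7 were called higher and none lower, and their sum was 1081 to 1749 CPM in AVF mice and 561 to 926 in sham mice. All 6 markers of cycling cells were called higher, with sums of 174 to 333 and 42.7 to 79.9. Of 8 fibroblast markers, 3 were called higher and 1 lower, and their sum was 5189 to 6248 CPM in AVF mice and 3766 to 6434 in sham mice. Of 6 pericyte markers 1, Rgs5, was called higher, with sums of 1426 to 3519 and 814 to 1724. Of 8 smooth muscle markers 1 was called higher and of 8 endothelial markers none was called, and the sums of both lists overlapped between the groups. The part of these cell types in the rise of Itga5, Itgb1 and Itgb5 was not tested. Brown fat markers were lower in 4 of 6 cases, all 8 hepatocyte markers were called higher, with sums of 2.92 to 7539 CPM and 1.44 to 5.11, while the lists of lymphocytes, sympathetic neurons, white fat and striated muscle had no call. Without samples #05 and #09 no hepatocyte marker was called, 3 brown fat markers were lower, 2 fibroblast markers were higher and none lower, and the macrophage, cycling, pericyte, smooth muscle and endothelial counts were 7, 6, 1, 1 and 0.

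Samples #05 and #09 lay outside the range of the other 4 AVF libraries in several members. Itgav was at 121 and 130 CPM in them against 146 to 163 in the other 4, Itga1 at 349 and 280.0 against 364 to 482, and Itgb3 above the others, at 51.5 and 53.6 against 25.9 to 39.9. Itgb5 was above the others in #05, at 130 CPM, and below them in #09, at 87.3 against 87.7 to 122. In Itga8, Itga11 and Itgb8 only #09 lay outside, below the other 4 each time. Itga5, Itga2 and Itgb1 lay within the range of the other 4 in both samples. The share of all tested genes with values outside such a range was not counted. The 2 samples were set apart by the study and not by the sample labels, so their values are given with no test.

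Ligands of these receptors were among the genes of matrix proteins measured in the same libraries. Of 25 ligand genes, 24 passed the filter, 14 were called higher, 13 of them as DEG, and 1 lower, with a median log2 fold change of 1.18. Fn1, fibronectin, the ligand of Itga5 with Itgb1, ran from 2182 to 5178 CPM in AVF mice and from 715 to 1215 in sham mice, a log2 fold change of 1.75 (SE 0.21, edgeR quasi-likelihood adjusted p = 0.00036). The chains of basement membrane collagen Col4a2 and Col4a1 had log2 fold changes of 1.36 and 1.37, and Postn, periostin, a ligand of Itgav receptors, one of 1.6. In these 4 genes every AVF library lay above every sham library. Vtn, vitronectin, a plasma protein made by the liver and the ligand of Itgav with Itgb5, was not called (log2 fold change 1.68, adjusted p = 0.114), and its median was 10.0 CPM in AVF mice and 11.1 in sham mice. It was at 48.4 and 126 CPM in samples #05 and #09, against 6.34 to 10.4 in the other 4 AVF libraries and 7.47 to 14.1 in sham mice. Without these 2 samples its log2 fold change was -0.30 (adjusted p = 0.317). Edil3, a ligand of Itgav with Itgb3 or Itgb5, fell by 0.86 on the log2 scale (edgeR quasi-likelihood adjusted p = 0.0191), from a median of 21.1 to 12 CPM, and had a log2 fold change of -0.71 without samples #05 and #09 (adjusted p = 0.0502).

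Of 30 genes for adaptors at the integrin tail, 29 passed the filter, 4 were called higher, none lower and none as DEG, with a median log2 fold change of 0.17. The 4 were the actin linkers Vcl, vinculin (0.48), Actn4 (0.43) and Actn1 (0.61), and Dok1 (0.77), which competes with talin for the beta tail. In each of them 5 of 6 AVF libraries lay above every sham library. The integrin activators Tln1 (0.17) and Fermt2 (0.07), the kinases Ptk2 (0.17) and Ilk (0.20) and the scaffold Pxn (0.07) were not called. These were chosen for their roles after their values were known.

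**Figure D5:**
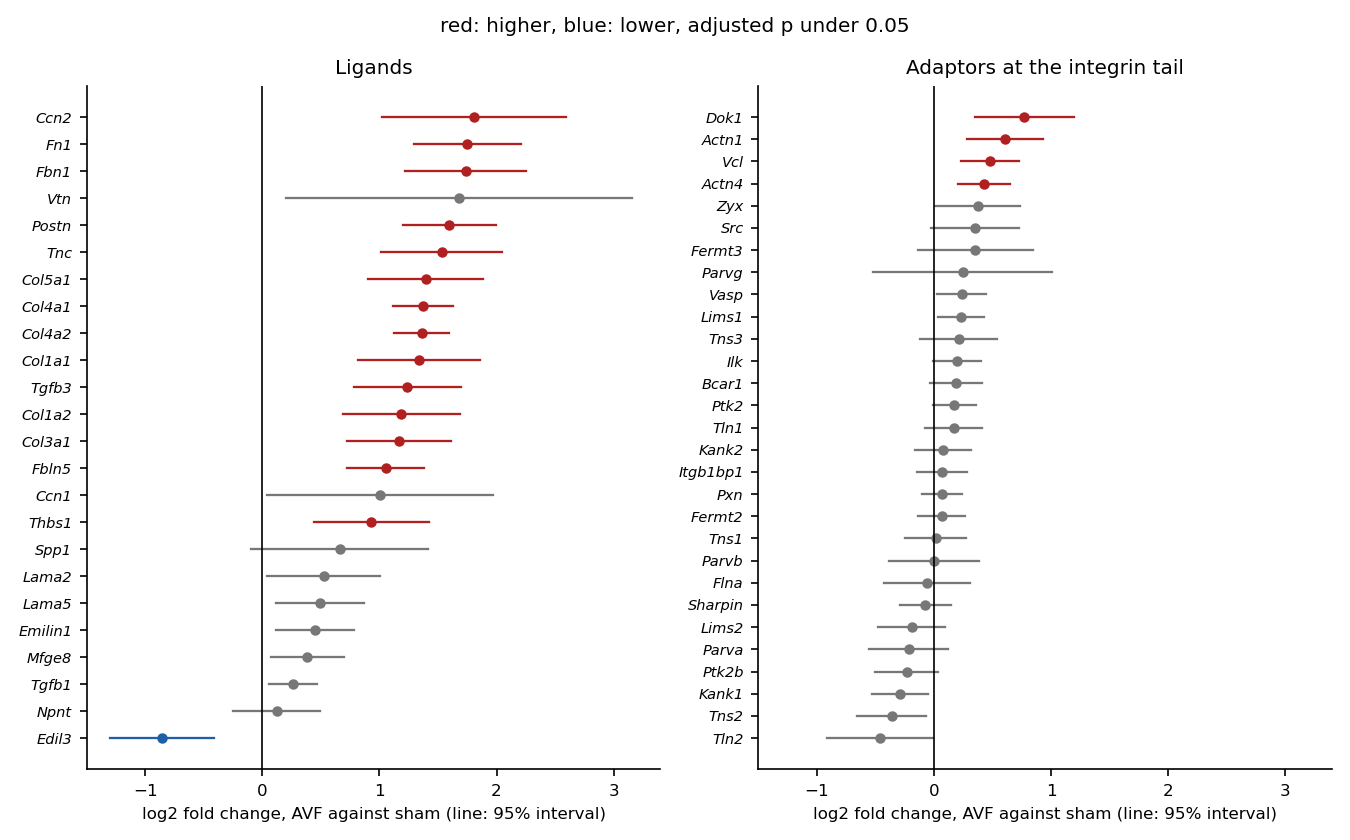
Log2 fold change of AVF against sham with its 95% interval for the 24 tested ligand genes (left) and the 29 tested adaptor genes (right), red where called higher and blue where called lower. Fold changes of 14 ligands are red, while 4 adaptors are.

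For each member the gene with the most similar profile was sought among all tested genes that are not integrin subunits, as the smallest mean absolute difference of log2 CPM over the 12 libraries after centring each gene. For Itgb1 it was Eng, an endothelial co-receptor of TGF-beta (difference 0.0734), for Itgb5 it was Snx18, a membrane remodelling protein (0.0869), and for Itga5 it was Plpp1, a lipid phosphatase (0.124). For Itga8 it was Ppp1r12b, a subunit of myosin phosphatase (0.0896). Itgb3 had Parvb, an adaptor of the list above (0.144), and Itga11 had Tbxa2r, the thromboxane receptor (0.149). Itgb8 had the least similar nearest gene, Cadm4 (0.170), an adhesion molecule of Schwann cells. Itga1, Itga2 and Itgav had Nr2c2 (0.0680), Tcaf1 (0.113) and Golim4 (0.0853). Among the members themselves, Itgb1 and Itgb5 were each other's nearest, with a difference of 0.138, and so were Itga1 and Itga8, with one of 0.152.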

How the data were processed

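Poly(A) RNA of the IVC was sequenced by the authors in stranded paired-end libraries. Per the labels, reads were trimmed with PRINSEQ 0.20.4 and Trimmomatic 0.39, aligned to GRCm39 with the Ensembl release 106 annotation by STAR 2.7.7a, and the authors deposited expected counts per gene from RSEM 1.3.3, neither normalized nor filtered. Gene names, exon lengths and coordinates were taken from GENCODE M39 on GRCm39, a later annotation than that of the authors, and 665 identifiers had no name in it.

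TMM size factors were applied to the rounded expected counts, and tests were the quasi-likelihood test of edgeR 4.0.16 (R 4.3.3, limma 3.58.1) over all tested genes, with the Benjamini-Hochberg procedure. DEG combined an adjusted p value under 0.05 with a log2 fold change of 1 or more in size. The filters were more than 1 CPM in at least 2 samples (15912 genes) and, for the model of operation and sex, more than 12 counts over the 12 samples (22163 genes). Standard errors came from the fold change and the F statistic, and 95% intervals from the t distribution of the fit. The 3 counts taken as the floor were 0.127 to 0.324 CPM, for counting error only. Within groups, pairs of libraries differed by a chi-square of 40.9 to 669 per degree of freedom, so no library was held to be a copy. Each library was 1 mouse.

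Levels between genes were normalized CPM per kb of the union of exons, or of the longest transcript as an alternative. Promoters came from RefSeq, and Itgb3 had no entry. The test was also run on simulated counts, with a check on the direction of recovered genes and no condition on false calls. Alternatives were other size factors, filters and tests (DESeq2 1.42.0, edgeR's exact test), unrounded counts, sex as a covariate, and samples left out. A further alternative took sex and the replicate number in the sample title as a block. The named genes are the 10 members, up to 4 called genes in each direction of the ligand and adaptor lists, any other integrin subunit, and the nearest gene of each member. Vtn, Tln1, Fermt2, Ptk2, Ilk, Pxn and the markers Alb, Cdh19 and Rgs5 are exceptions, chosen with their values in view. The members and the lists were chosen with earlier results of these data known.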

Additional observations from a re-analysis of the deposited data

Results flagged for a closer look

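In each group of 6 libraries, the highest and the lowest value were compared with the rest by Dixon's test of the gap to the nearest library over the whole range. Of 20 groups of the members 2 passed it, and of 77 groups in all 8 did, where chance gives about 1 in 20. Itga5 was at 93.5 CPM in AVF sample #11, above the other 5 AVF libraries. In sham sample #16, Itgb3 was at 62.3 CPM, Itga2b at 26.1 and the sum of 6 platelet markers at 178, each above the other 5 sham libraries. Itga7 was at 20.1 CPM in AVF sample #09, below the other 5 AVF libraries. Itgae, an integrin subunit of lymphocytes in epithelium, was at 3.89 CPM in AVF sample #04, above the others. The sum of 8 hepatocyte markers was 7540 CPM in AVF sample #09, and that of 8 striated muscle markers was 1070 CPM in sham sample #19.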

How the results depend on the processing

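Itga5, Itgb1 and Itgb5 were called higher in all 11 alternatives of test, size factors, filter, rounding, covariate, block and samples that kept the threshold on p values alone, with log2 fold changes of 0.72 to 0.75, 0.51 to 0.57 and 0.74 to 0.78. The count of members called higher was 5 in DESeq2, which added Itga11 and Itgav, 0 with the 2-fold threshold, and 3 to 5 with each library left out in turn (5 without sham sample #18). Over all genes, 2190 calls became 3402 in DESeq2, 1222 without samples #05 and #09 and 759 with the 2-fold threshold. With each library left out they were 1330 to 2546, with 1330 without sample #22, 1410 without #05, 1451 without #23 and 1456 without #16. The count of 2546 came without AVF sample #07, which had 46.0% of its counts in ribosomal RNA genes. The calls of members in females, 2, became 4 with the filter of more than 1 CPM in 2 samples and 4 in DESeq2, and 0 to 4 with each library left out. In males 0 became 1 in DESeq2 and 0 to 1 with each library left out, and the interaction called 3 genes in DESeq2 and 0 with each library left out. Of the recomputed fold changes of members, 219 kept their direction and side of the threshold and 6 passed it newly, all in Itga11 and Itgav. Changes of sign were seen in Itgb3, at -0.16 without samples #05 and #09 and -0.038 to 0.24 with each library left out, and in Itga2, at -0.20 to 0.0072. The cause was not tested.

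Mice of the same sex with the same replicate number in the sample title share only that number. Deviations from the group means correlated by over 0.1 in 3 of 6 such pairs. Among sham samples, 2 of 6 AVF samples correlated best with the one of their own sex and replicate number. With the number as a block, 1980 genes were called, 1604 of them also without it, and 4 members rose, with Itga11 added (log2 fold change 0.70, adjusted p = 0.0447, edgeR's quasi-likelihood test). The interaction with the block called no member. Per kb of the longest transcript, 15 of 28 mean shares moved by more than 1 SD. The share of Itgb5 among Itgb3, Itgb5 and Itgb8 was then 59.0% and 40.9%, without overlap. The lowest count of a member was 74, in Itga11, and the part of depth in its standard error was not tested.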
